A study of Mus musculus with 81 samples.

Results

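The genes described here are 5 matrix metalloproteinases, Mmp9, Mmp12, Mmp13, Mmp14 and Mmp19, and 2 of their tissue inhibitors, Timp1 and Timp2. They were chosen by symbol, and all 7 were found among the 54079 genes that every library lists. RNA-seq was performed on mouse macrophages in which both genes of histone H3.3 were targeted and on controls, in 81 libraries of which 79 could be placed in a group. The controls (WT) carry floxed alleles of both H3.3 genes without Cre, H3f3a fl/fl H3f3b fl/fl, and the knockouts (cKO) carry the same floxed alleles together with LysM cre/cre. LysM Cre is knocked into Lyz2 and recombines in myeloid cells, so that the cKO groups carry Cre and lack Lyz2 while the WT groups do neither, and effects of H3.3 loss, of Cre and of Lyz2 loss cannot be told apart.

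Bone marrow of C57BL/6 mice aged 8 to 10 weeks was cultured with L929 conditioned medium, a source of the growth factor CSF1, to give bone marrow-derived macrophages (BMDMs). WT and cKO cells were collected on days 3, 5 and 7, as progenitors that mature into macrophages. Further BMDMs were collected on day 8 without treatment or after 12 h of interferon gamma (IFNg). In an antibody experiment, BMDMs were grown without antibody, with an IgG1 isotype control antibody or with an antibody that blocks IFNAR1, the receptor of type I interferons, and were lysed on day 6. There were also 3 sets of WT and cKO BMDMs, and cKO BMDMs that in addition lack Sting, Mavs or Irf7 in every cell of the mouse. The labels do not say which set goes with which double knockout. The last groups were WT and cKO peritoneal macrophages, isolated with a kit and sequenced from a low-input library. Groups held 3 libraries, labelled as biological replicates, except for both cKO groups of day 8 with 2. The study counts mice as replicates in some of its assays. Whether each library here came from its own mouse is not stated for every experiment, and p-values measure the spread between these libraries.

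Matrix metalloproteinases are zinc-dependent proteases that are made as inactive proenzymes and cut collagens, elastin and other proteins outside the cell. Tissue inhibitors of metalloproteinases (Timps) bind the active site of these enzymes and block it. Macrophages use the proteases to move through tissue, to clear and remodel matrix, and to release or cut cytokines and chemokines. Mmp13 is a collagenase, Mmp9 a gelatinase and Mmp12 the macrophage elastase. Mmp14 is anchored in the cell membrane, cuts collagen and activates other proenzymes, and Mmp19 is a secreted protease that cuts basement membrane proteins. Timp1 is an inducible secreted inhibitor, and Timp2 both inhibits metalloproteinases and takes part in the activation of Mmp2 at the cell surface by Mmp14.

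On GRCm38, Mmp13 (chr9:7272514-7283331) and Mmp12 (chr9:7344381-7369499) lie in the metalloproteinase cluster of chromosome 9, 61 kb apart and on the + strand. Mmp14 (chr14:54431612-54445364), Mmp19 (chr10:128790910-128800824), Mmp9 (chr2:164940780-164955850) and Timp1 (chrX:20870166-20874735) are also on the + strand, and Timp2 (chr11:118301069-118355740) is on the - strand. Timp2 lies 2.27 Mb from the floxed H3f3b gene, and Mmp19 11.5 Mb from Lyz2. Exons of Mmp12 overlap those of Mmp1b on the other strand, and exons of Mmp19 those of Tmem198b and Gm47093. The counts used here disregard strand, and reads on exons of both genes are set aside as ambiguous and counted for neither. Reads of these overlaps are thus missing from Mmp12 and Mmp19, and their values are uncertain to that degree.

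Upstream sequences are shown for 4 members whose RNA differed with IFNg, with antibody or between sets, to set their regulatory letters side by side. RefSeq promoters, on GRCm38.p6 and from 250 bases before to 50 bases after each start, were given for 5 of the 7 members. Letters were searched on both strands for an AP-1 site (TGANTCA, held by 7.81% of 32851 promoters of 300 bases), the core of an interferon-stimulated response element (GAAA, any 2 bases and GAAA again, 3.44%) and the TATA letters TATAAA (13.6%). The 250 bases before each RefSeq start are printed from 5′ to 3′ on the strand of the gene, with matches to these motifs in capitals. For Timp2 and the second start of Mmp12 these bases lie inside the gene as placed above, past its annotated 5′ end.

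Mmp13 (chr9:7272264-7272513, + strand): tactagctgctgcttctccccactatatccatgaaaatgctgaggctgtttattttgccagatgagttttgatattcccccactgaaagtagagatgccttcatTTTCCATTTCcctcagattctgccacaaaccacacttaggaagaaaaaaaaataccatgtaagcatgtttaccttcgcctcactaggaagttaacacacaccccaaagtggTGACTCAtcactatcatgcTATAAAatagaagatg
Mmp12, second start (chr9:7347124-7347373, + strand): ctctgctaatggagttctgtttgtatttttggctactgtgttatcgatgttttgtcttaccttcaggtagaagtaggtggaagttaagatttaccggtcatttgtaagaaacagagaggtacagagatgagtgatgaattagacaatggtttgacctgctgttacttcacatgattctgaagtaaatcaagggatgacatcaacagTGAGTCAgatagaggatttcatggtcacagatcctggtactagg
Mmp14 (chr14:54431348-54431597, + strand): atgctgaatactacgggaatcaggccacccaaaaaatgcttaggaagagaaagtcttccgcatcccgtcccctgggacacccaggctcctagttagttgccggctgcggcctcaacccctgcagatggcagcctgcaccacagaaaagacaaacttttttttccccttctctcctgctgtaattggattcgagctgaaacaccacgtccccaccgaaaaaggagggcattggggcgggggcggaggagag
Timp2 (chr11:118355412-118355661, - strand): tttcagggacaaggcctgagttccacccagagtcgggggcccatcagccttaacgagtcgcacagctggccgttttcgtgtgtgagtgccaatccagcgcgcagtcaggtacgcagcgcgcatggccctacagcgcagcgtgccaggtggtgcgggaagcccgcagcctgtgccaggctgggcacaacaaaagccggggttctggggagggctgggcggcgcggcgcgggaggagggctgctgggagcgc

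Counted from the start, Mmp13 held AP-1 letters from -35 to -29, TATAAA from -16 to -11 and, on the opposite strand, the response element core from -146 to -137. The second start of Mmp12 held AP-1 letters from -44 to -38 and TATAAA from 5 to 10, which is past the bases printed. None of the 3 motifs was found in the windows of Mmp14, Timp1, Timp2 or the first start of Mmp12. A match is a description of the letters and not a bound site.

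Counts on genes per library ranged from 14419697 to 20220329 in the time course, from 3614967 to 9879339 on day 8, from 7625225 to 23381318 in peritoneal macrophages, from 5295144 to 34380735 in the antibody experiment and from 21492762 to 45564225 in the sets and double knockouts. H3f3a was at 1.21 to 15.3 counts per 1e6 counts on genes (CPM) in the cKO libraries and 33.6 to 93.8 CPM in the WT libraries. H3f3b, the other targeted gene, was at group means of 35.2 to 49.8 CPM in cKO against 306 to 376 in WT in the antibody experiment. Elsewhere it was at 121 to 329 against 218 to 438 CPM, where its RNA was not lost. The study reports that deletion of H3f3b varied, complete in some cKO samples and partial in others. Complete loss of H3.3 can therefore not be assumed in these other cKO groups. Sting RNA was at 5.52 CPM in the Sting double knockout against 72.0 to 88.1 CPM in the cKO sets, and Irf7 at 106 against 310 to 388 CPM. Mavs was at 37.5 CPM in its double knockout against 38.9 to 49.9 CPM, so the total over the gene did not check that label. The WT libraries of set 2 stood apart from those of sets 1 and 3. Same-numbered libraries of sets 1 and 3 deviated from their group means together in each genotype, with r of 0.055 to 0.713 in WT and 0.21 to 0.534 in cKO over genes, so that it cannot be said that these sets are independent. The 9 macrophage markers had counts in every group and summed to 3140 to 12300 CPM. Levels are given in CPM scaled by TMM, and per kb of exons (CPM per kb) where genes are compared.

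Per kb of exons, Timp2 was the most abundant of the 7 in 20 of the 25 groups of BMDMs and their progenitors. Mmp12 came first in 4 groups, namely WT day 3, WT day 8 with IFNg, cKO with control antibody and WT set 2, and Mmp13 in cKO day 3. In WT set 1, Timp2 was at 82.2 CPM per kb and Mmp12 at 16.4, ahead of Mmp19 (5.94), Mmp13 (2.22), Mmp9 (1.81), Timp1 (1.44) and Mmp14 (0.716). The last 4 of these lay close together, and their order changed between the sets. In WT peritoneal macrophages the order was another one, with Timp2 at 635 CPM per kb, Mmp9 at 14.1 and Mmp19 at 3.10, while Mmp14 (0.160), Mmp13 (0.116), Timp1 (0.0704) and Mmp12 (0.0558) were near 0. Experiments differ in culture time, library kit and depth, and levels were not tested between them.

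**Figure D1:**
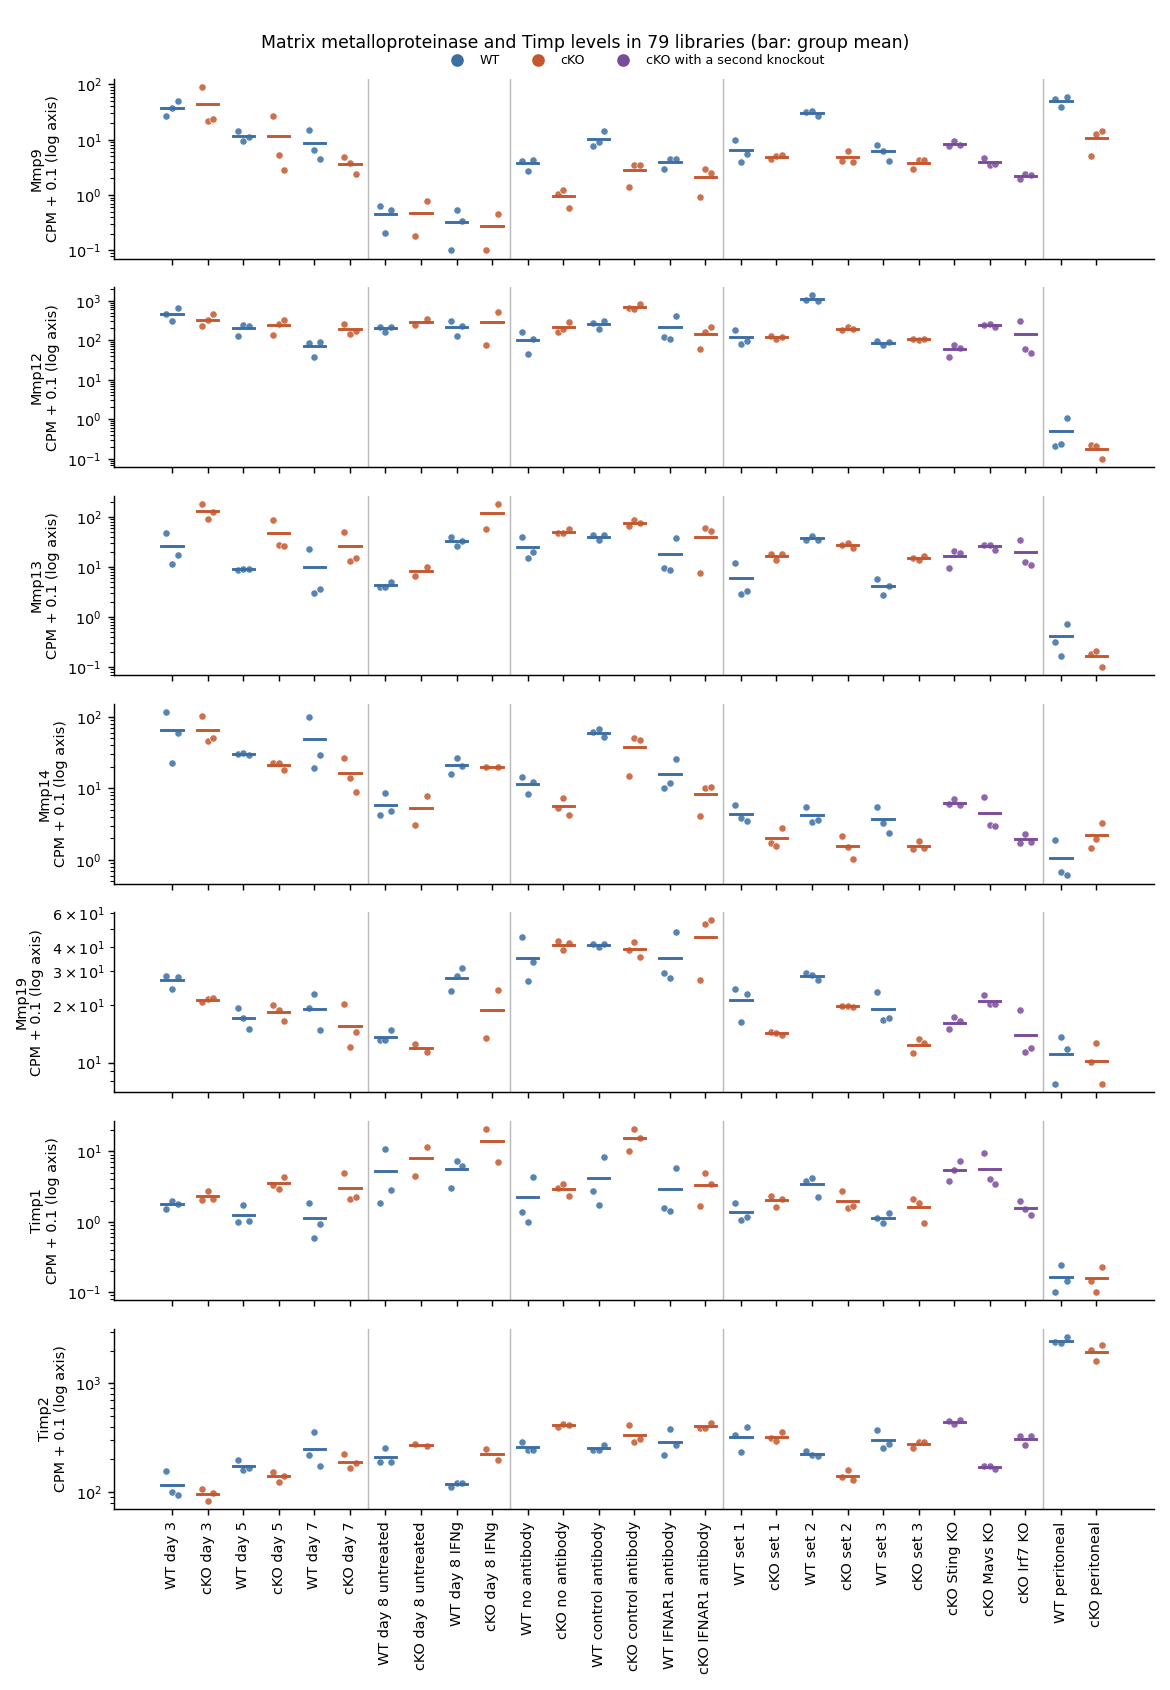
Level of each of the 7 genes in the 79 placed libraries, in CPM on a log axis with 0.1 added, with groups on the horizontal axis, a point for each library and a bar at the group mean. Mmp12, Mmp13 and Timp1 are near 0 in peritoneal macrophages and Mmp9 is under 1 CPM on day 8, while Timp2 is at 83.6 CPM or more in every library.

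Of the 202 member tests in 30 comparisons, 43 passed, with 22 higher and 21 lower. The share of all genes that passed ran from 0% to 38.9% between comparisons and is given with each of them. Tests used the quasi-likelihood test of edgeR with Benjamini-Hochberg adjustment over all genes of an experiment, at an adjusted p under 0.05. The 8 tests not made were those of genes with too few counts, Mmp9 on day 8 and Mmp12, Mmp13 and Timp1 in peritoneal macrophages.

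Maturation from day 3 to day 7 was compared first. Mmp9, Mmp12, Mmp13, Mmp14 and Mmp19 had their highest group means on day 3 in both genotypes. Mmp9 was at 26.7, 37.4 and 49.8 CPM in WT day 3, at 14.3, 9.23 and 10.9 on day 5 and at 14.9, 6.51 and 4.40 on day 7. Mmp12 was at 458, 306 and 647 CPM in WT day 3, at 132, 248 and 230 on day 5 and at 83.1, 37.4 and 92.2 on day 7. For both genes all day 3 libraries were above those of day 5, and for Mmp12 all day 5 libraries were also above those of day 7. Of all genes, 35.1% did not overlap between days 3 and 5 in WT, and 14.7% between days 5 and 7. Timp2 went the other way, at 157, 100 and 93.6 CPM on day 3, 197, 159 and 167 on day 5 and 218, 361 and 174 on day 7 in WT, with days 5 and 7 overlapping.

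None of these maturation steps passed for a member. From day 3 to day 5 in WT, where 2.91% of 15955 genes passed, 0 of 7 members did, against 4 at an unadjusted p under 0.05 and 2 (Mmp12, Mmp19) by DESeq2. Log2 fold changes were -1.73 for Mmp9 (SE 0.69, adjusted p = 0.172), -1.21 for Mmp12 (SE 0.4, adjusted p = 0.114), -0.65 for Mmp19 (SE 0.179, adjusted p = 0.0613) and 0.58 for Timp2 (SE 0.235, adjusted p = 0.179). From day 5 to day 7 in WT (0.15% of genes) it was 0 of 7, with 2 unadjusted and 1 by DESeq2, Mmp12, at -1.52 (SE 0.405, adjusted p = 0.0932).

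In cKO cells the same steps gave 0 of 7 from day 3 to day 5 (4.89% of genes), with 3 unadjusted and 0 by DESeq2. The replicate numbers of cKO days 3 and 5 were taken to pair the libraries. With the number as a block, where 6.71% of genes passed, 3 members fell, Mmp9 by 2.06 (adjusted p = 0.0314), Mmp13 by 1.72 (adjusted p = 0.0176) and Mmp14 by 1.5 (adjusted p = 0.0451) on the log2 scale. From day 5 to day 7 (0.0501% of genes) it was 0 of 7, with 1 unadjusted and 0 by DESeq2. Neutrophil markers moved with these steps. The summed level of 11 neutrophil genes, all with counts on days 3 to 7, was 1690 to 3240 CPM in WT day 3 and 2920 to 4540 in cKO day 3, 503 to 605 and 540 to 1860 on day 5, and 76.9 to 136 and 94.9 to 293 on day 7. Neutrophils store Mmp9, Mmp8 and Mmp25, and the part of these cells in the fall of Mmp9 was not tested. In bulk libraries, fewer cells of a type and less RNA per cell cannot be told apart.

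The targeting of H3.3 during maturation was addressed by cKO against WT on each day. Mmp13, the collagenase, was at 48.1, 11.7 and 17.3 CPM in WT day 3 and at 184, 90.4 and 126 in cKO day 3. It was at 8.60, 9.06 and 9.13 CPM in WT day 5 against 88.8, 27.3 and 26.0 in cKO, and at 23.2, 2.94 and 3.46 CPM in WT day 7 against 50.6, 12.9 and 15.1 in cKO. Every cKO library was above every WT library on days 3 and 5, and on day 7 WT replicate 1 lay within the cKO range. Of all genes, 34.1%, 26.5% and 16.6% did not overlap between the genotypes on days 3, 5 and 7. In 5 of the 6 groups, replicate 1 was the highest library for Mmp13. The log2 fold changes were 2.39 (SE 0.747, adjusted p = 0.059), 2.40 (SE 0.77, adjusted p = 0.125) and 1.39 (SE 0.754, adjusted p = 0.371).

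By the rule given with the processing, replicate numbers were taken to pair the WT and cKO libraries of each of these days. On day 3 the r values were 0.106 to 0.452. The block is shared by all groups of the time course. It thus also ties the WT days, which the rule did not pair, with r down to -0.061 between days 3 and 5 and -0.278 between days 5 and 7. With the number as a block, where 10.5%, 4.16% and 2.81% of genes passed on days 3, 5 and 7, Mmp13 was higher in cKO on day 3, at 2.61 (adjusted p = 0.000733), and on day 5, at 2.04 (adjusted p = 0.0107), and on day 7 the blocked value was 1.58 (adjusted p = 0.0585). Mmp12 was at 258, 141 and 175 CPM in cKO day 7, above all WT libraries, with a log2 fold change of 1.43 (SE 0.405, adjusted p = 0.0838) and a blocked value of 1.49 (adjusted p = 0.0437).

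Timp1 was low in these cells, at 0.896, 1.66 and 0.929 CPM in WT day 5 and 3.20, 2.85 and 4.19 in cKO day 5. All cKO libraries were above the WT libraries, and its rise of 1.54 on the log2 scale (SE 0.396, adjusted p = 0.0446) was the 1 call of 7 members on day 5, where 3.12% of genes passed. It was lost without any 1 of the 6 libraries, at adjusted p values from 0.0501 to 0.19, with the counts by strand (adjusted p = 0.0739) and with only the groups compared (adjusted p = 0.0698). On day 7 Timp1 was at 1.77, 0.490 and 0.827 CPM in WT and 4.76, 1.99 and 2.15 in cKO, a log2 fold change of 1.47 (SE 0.41, adjusted p = 0.0806). On day 3 (8.65% of genes called) and day 7 (1.82%), 0 of 7 members passed, with 1 and 3 at an unadjusted p under 0.05 and 1 (Mmp13) and 2 (Mmp12, Timp1) by DESeq2.

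For Timp2 and Mmp19 the genotypes lay close together. Log2 fold changes over the 3 days ranged from -0.39 to -0.29 for Timp2 and from -0.34 to 0.11 for Mmp19. For Mmp14, WT day 7 replicate 1 was at 99.8 CPM against 19.2 and 28.9 in the other WT libraries and 8.65 to 26.9 in cKO, with a log2 fold change of -1.59 (SE 0.603, adjusted p = 0.195). The difference between the genotype effects of day 7 and day 3 passed for 0 of 7 members (0.0439% of genes), with 1 unadjusted and 1 by DESeq2, Mmp12, at 1.92 (SE 0.565, adjusted p = 0.144). Summed levels of 9 stromal or fibroblast markers, of which 8 had counts on day 7 and Lum was at 0, were 5.11 to 45.9 CPM in WT day 7 and 101 to 146 in cKO day 7. On day 5 they were 16.1 to 51 CPM in WT, with Dcn and Lum at 0, and 77.1 to 115 in cKO. Their part in the differences of Mmp12, Mmp13 and Timp1 was not tested.

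**Figure D2:**
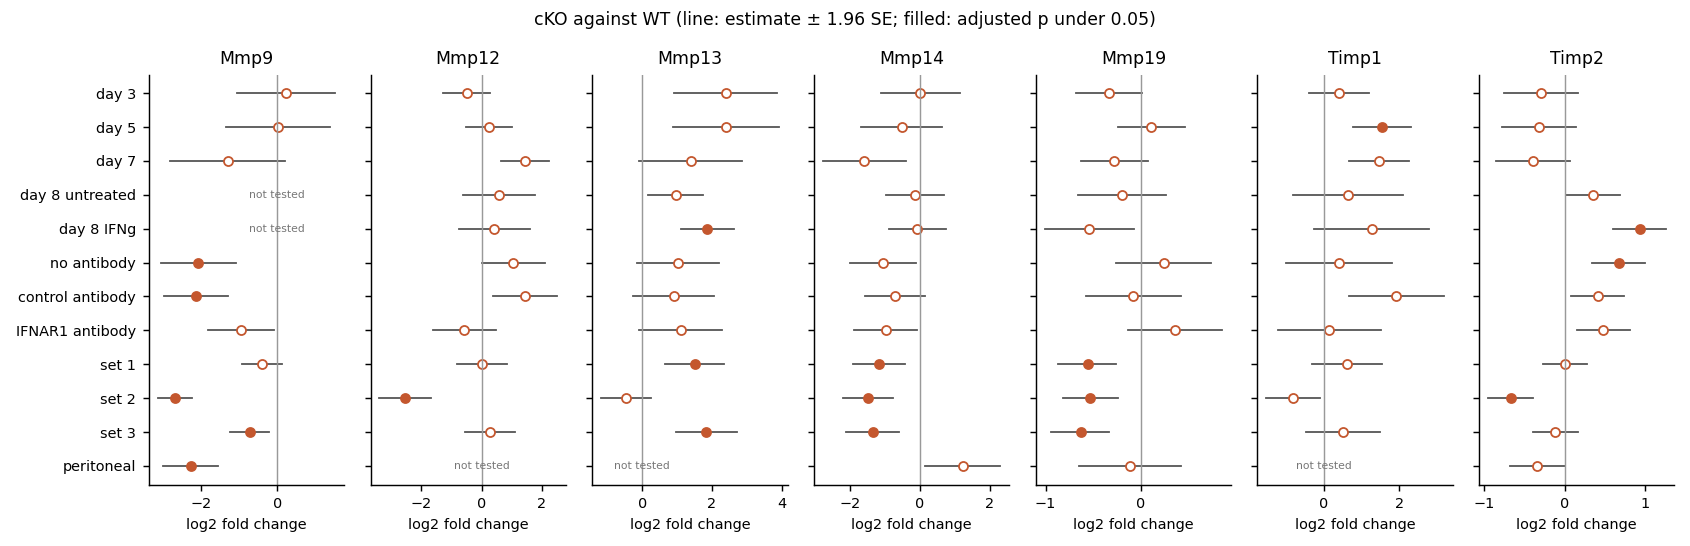
Log2 fold change of cKO over WT for each gene (panels) in each experiment (rows), with lines of 1.96 SE to either side, filled where the adjusted p was under 0.05. Mmp9 is filled and below 0 without antibody, with control antibody, in sets 2 and 3 and in peritoneal macrophages, and Mmp13 is above 0 in all tested rows but set 2.

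IFNg, a cytokine that activates macrophages, was given for 12 h on day 8. In WT cells it raised Mmp13, Mmp14 and Mmp19 and lowered Timp2, 4 of the 6 members tested, where 38.9% of 13075 genes passed. Mmp13 was at 3.84, 3.82 and 4.99 CPM without and 39.8, 26.3 and 32.5 with IFNg. Mmp14 was at 4.17, 8.50 and 4.64 CPM without and 15.5, 26.6 and 20.6 with IFNg. The libraries with IFNg were all above those without for both genes. Mmp19 was at 13, 13.1 and 14.7 CPM against 23.5, 28.3 and 31.2, and Timp2 at 189, 255 and 191 CPM against 111, 121 and 120. Neither of these groups overlapped, with Mmp19 higher and Timp2 lower under IFNg. Of all genes, 62% did not overlap between these groups.

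The log2 fold changes in WT were 2.96 for Mmp13 (SE 0.384, adjusted p = 0.000243), 1.86 for Mmp14 (SE 0.379, adjusted p = 0.0035), 1.02 for Mmp19 (SE 0.211, adjusted p = 0.00362) and -0.85 for Timp2 (SE 0.152, adjusted p = 0.00164). These 4 calls held without each of the 6 libraries in turn. Timp1 overlapped, at 1.76, 10.8 and 2.71 CPM without and 2.89, 7.29 and 6.14 with IFNg, and replicate 2 was the highest library of both groups. Mmp12 overlapped as well, at 163 to 218 CPM without and 130 to 304 with IFNg.

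In cKO cells Mmp13 was at 6.58 and 9.88 CPM without and 57.4 and 180 with IFNg, and Mmp14 at 2.92 and 7.63 against 19.9 and 19.8. Both rose, by 3.86 (SE 0.482, adjusted p = 0.000288) and 1.92 (SE 0.472, adjusted p = 0.0117) on the log2 scale, 2 of 6 members where 33.9% of genes passed. The call of Mmp13 held without each library, and that of Mmp14 was lost without cKO untreated replicate 1, at 1.37. Each of these fits leaves 1 library in a cKO group, which is assumed to vary like the other groups. Mmp19 was at 12.4 and 11.3 CPM without and 13.3 and 23.9 with IFNg, a log2 fold change of 0.68 (SE 0.261, adjusted p = 0.0681). It passed by DESeq2 (0.79, adjusted p = 0.0214) and with the counts by strand (0.74, adjusted p = 0.0244). Without cKO IFNg replicate 1 it was at 1.04. Timp2 was at 278 and 263 CPM without and 248 and 199 with IFNg, a log2 fold change of -0.28 (SE 0.185, adjusted p = 0.279). The groups did not overlap, as was so for 59.6% of all genes.

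The difference between the IFNg effects of cKO and WT passed for 0 of 6 members and 0% of all genes, with 1 member and 1206 genes at an unadjusted p under 0.05, and 0 members and 78 genes by DESeq2. For Timp2 it was 0.57 (SE 0.239, adjusted p = 0.532), for Mmp13 0.90 (SE 0.568, adjusted p = 0.609) and for Mmp14 0.06 (SE 0.588, adjusted p = 0.977). A weaker fall of Timp2 in cKO cells was thus not shown.

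Between the genotypes under IFNg, 2 of 6 members were higher in cKO, where 5.48% of genes passed. Mmp13 differed by 1.86 (SE 0.387, adjusted p = 0.0272) and Timp2 by 0.93 (SE 0.167, adjusted p = 0.0173) on the log2 scale, with all cKO libraries above the WT libraries. Of all genes, 34.4% did not overlap between these groups. The call of Mmp13 was lost without WT IFNg replicate 1, 2 or 3 or cKO IFNg replicate 2, at adjusted p values up to 0.114 and with a log2 fold change of 0.77 without the last of these. That of Timp2 was lost without WT IFNg replicate 1 or 3, at adjusted p values up to 0.0788. Without IFNg, 0 of 6 members passed (0.658% of genes, 1 unadjusted, 0 by DESeq2), and Mmp13 was at 0.96 (SE 0.403, adjusted p = 0.76) and Timp2 at 0.35 (SE 0.167, adjusted p = 0.879). The 2 cKO libraries with IFNg differed from each other, with Mmp12 at 74.3 and 518 CPM. Replicate 1 was the smallest library of all, with 57.1% of its reads unmapped against 12.6% to 18.3% in the other day 8 libraries and a TMM factor of 0.46 against 0.891 to 1.25. Without it, 1 cKO library with IFNg remains, so only log2 fold changes are given. Mmp13 then differed between the genotypes by 2.47 and Timp2 by 0.79. The IFNg effect in cKO was then 4.48 for Mmp13 and 1.96 for Mmp14. Stromal or fibroblast markers summed to 10.6 to 55.5 CPM in WT and 59.6 to 380 in cKO under IFNg, with Lum at 0 in both, and their part in the higher Mmp13 of cKO was not tested. Mmp9 had under 1 CPM in every library of day 8, and 11 neutrophil markers summed to at most 2.08 CPM there.

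**Figure D3:**
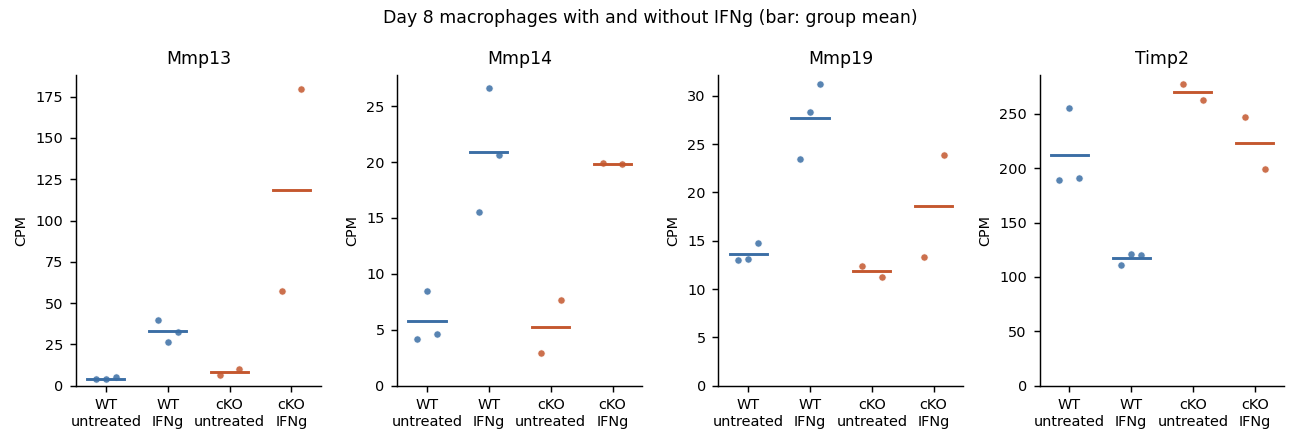
Levels in CPM of Mmp13, Mmp14, Mmp19 and Timp2 on day 8 in WT and cKO cells with and without IFNg, with a point for each library and a bar at the group mean. Mmp13 and Mmp14 are higher with IFNg in both genotypes, and Timp2 is at 111 to 121 CPM in the WT libraries with IFNg against 189 or more in the WT libraries without and 199 or more in cKO.

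The antibody experiment asked what type I interferon signalling contributes, with the isotype control antibody as the reference of the IFNAR1 antibody. Mmp14 was highest in the control antibody arm. In WT it was at 14.4, 8.19 and 12.0 CPM without antibody, 61.5, 68.0 and 51.7 with control antibody and 10.1, 11.7 and 25.8 with IFNAR1 antibody. In cKO it was at 5.28, 7.29 and 4.14 CPM without antibody, 14.8, 50.8 and 47.5 with control antibody and 4.06, 9.99 and 10.5 with IFNAR1 antibody. The control antibody libraries were above those of both other arms in each genotype.

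Against control antibody, Mmp14 was lower with IFNAR1 antibody by a log2 fold change of -1.93 in WT (SE 0.443, adjusted p = 0.0146) and -2.19 in cKO (SE 0.475, adjusted p = 0.019). Mmp9 was also lower in WT, at 7.56, 8.84 and 14.1 CPM with control antibody and 2.88, 4.33 and 4.35 with IFNAR1 antibody, with no overlap and a log2 fold change of -1.40 (SE 0.375, adjusted p = 0.0287). Mmp12 was lower in cKO, at 652, 610 and 844 CPM against 58.7, 161 and 220, again with no overlap, by -2.26 (SE 0.555, adjusted p = 0.029). These were 2 of 7 members in each genotype, where 11.2% of 17191 genes in WT and 4.68% in cKO passed. Timp1 was at 10.1, 21.0 and 15.5 CPM in cKO with control antibody and 1.59, 4.88 and 3.34 with IFNAR1 antibody, a log2 fold change of -2.22 (SE 0.659, adjusted p = 0.0682) with no overlap. Of all genes, 32.8% in WT and 28.5% in cKO did not overlap between these arms.

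The 4 calls were not firm against leaving out a library, and none of them passed with only the groups compared. Mmp14 lost its call in WT without control antibody replicate 2 or IFNAR1 antibody replicate 1 or 2, at up to an adjusted p of 0.0784, and in cKO without control antibody replicate 2 or 3 or IFNAR1 antibody replicate 1, at up to 0.0992. Mmp9 in WT lost it with the counts by strand, at -1.11 (adjusted p = 0.084), and without control antibody replicate 2 or 3 or IFNAR1 antibody replicate 1 or 2, at up to 0.126. Mmp12 in cKO lost it without control antibody replicate 2 or 3 or IFNAR1 antibody replicate 1 or 2, at up to 0.128. WT IFNAR1 antibody replicate 3 stood apart from the other 2 libraries of its group for Mmp12, Mmp13 and Mmp14, and cKO IFNAR1 antibody replicate 1 for Mmp13. The difference between the IFNAR1 antibody effects of cKO and WT passed for 0 of 7 members and 0% of genes, with 1 member and 990 genes unadjusted and 0 members and 44 genes by DESeq2. It was largest for Mmp12, at -2 (SE 0.757, adjusted p = 0.773).

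Comparisons with the arm without antibody were added after these levels were seen, and they share libraries with those above. Control antibody was above no antibody for Mmp14, by a log2 fold change of 2.39 in WT (SE 0.453, adjusted p = 0.00813) and 2.73 in cKO (SE 0.486, adjusted p = 0.0145). Mmp9 was also higher in WT, from 3.98, 2.64 and 4.25 CPM without antibody, by 1.48 (SE 0.377, adjusted p = 0.0258). These were 2 of 7 members in WT, where 9.74% of genes passed, and 1 of 7 in cKO, where 2.09% passed. The WT call of Mmp14 held without each library. The cKO call of Mmp14 was lost without no antibody replicate 1 or 2 or control antibody replicate 2 or 3, at adjusted p values up to 0.107. The WT call of Mmp9 was lost with the counts by strand, at 1.37 (adjusted p = 0.0545), and without no antibody replicate 2 or 3 or control antibody replicate 2 or 3, at up to 0.114. In cKO, Mmp12 stood at 1.72 (SE 0.544, adjusted p = 0.13) and Timp1 at 2.40 (SE 0.656, adjusted p = 0.0725), with no overlap in either. Of all genes, 30.9% in cKO and 42.1% in WT did not overlap between these arms.

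IFNAR1 antibody against no antibody passed for 0 of 7 members in WT, where 0% of genes passed, with 0 members and 963 genes at an unadjusted p under 0.05 and 0 members and 31 genes by DESeq2. In cKO, where 0.221% of genes passed, it was 0 of 7 members, with 1 unadjusted and 0 by DESeq2. For Mmp14 these log2 fold changes were 0.47 (SE 0.444, adjusted p = 0.997) in WT and 0.54 (SE 0.497, adjusted p = 0.895) in cKO, with 95% intervals that reach to 1.34 and 1.51. Stromal or fibroblast markers moved with the arms in cKO, at sums of 45.0 to 95.8 CPM without antibody, 200 to 396 with control antibody and 54.2 to 103 with IFNAR1 antibody, with Lum at 0 in the last 2 of these arms. In WT the sums were 14.6 to 113, 16.1 to 260 and 6.78 to 131 CPM, which overlap. Their part in the Mmp14, Mmp12 and Timp1 differences was not tested.

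**Figure D4:**
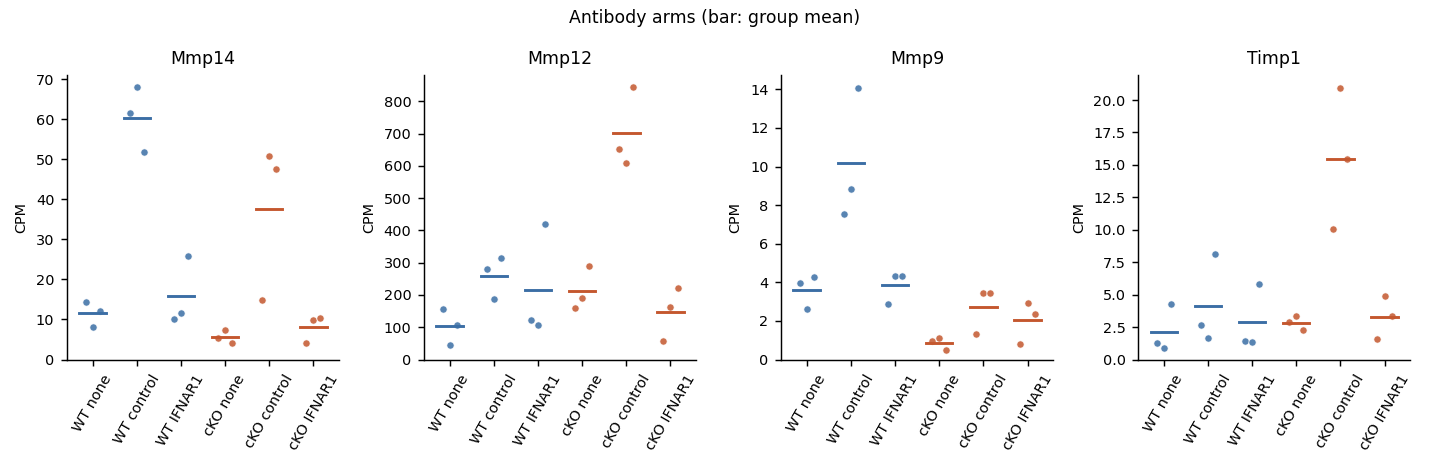
Levels in CPM of Mmp14, Mmp12, Mmp9 and Timp1 in WT and cKO BMDMs of the 3 antibody arms, with a point for each library and a bar at the group mean. For Mmp14 the control antibody libraries are above those of both other arms in each genotype, and for Mmp12 and Timp1 this is so in cKO.

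H3.3 loss was also compared within each arm. Mmp9 was lower in cKO without antibody, at 0.960, 1.12 and 0.491 CPM, and with control antibody, at 1.31, 3.43 and 3.42 CPM, in both arms below all WT libraries. The log2 fold changes were -2.07 (SE 0.497, adjusted p = 0.0194) and -2.12 (SE 0.431, adjusted p = 0.00838), and with IFNAR1 antibody -0.95 (SE 0.444, adjusted p = 0.414), with overlapping groups. Timp2 was higher in cKO without antibody, at 396, 422 and 417 CPM against 290, 243 and 245 in WT, by 0.67 (SE 0.168, adjusted p = 0.0239). It was at 0.41 (SE 0.168, adjusted p = 0.221) with control antibody and 0.48 (SE 0.168, adjusted p = 0.264) with IFNAR1 antibody, and all cKO libraries were above the WT libraries in the 3 arms.

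These calls were 2 of 7 members without antibody (8.16% of genes), 1 of 7 with control antibody (5.11%) and 0 of 7 with IFNAR1 antibody (0.698%, 2 unadjusted, 0 by DESeq2). Without antibody, Mmp9 lost its call without WT replicate 3 or any 1 of the 3 cKO libraries, at adjusted p values up to 0.0917. Timp2 lost it without WT replicate 2 or 3 or any 1 of the 3 cKO libraries, at up to 0.111. With control antibody, Mmp9 lost it without cKO replicate 1, at -1.56 (adjusted p = 0.0763). The replicate numbers were taken to pair the libraries of the control antibody arm. With the number as a block Timp1 was higher in cKO there, at 2.07 (adjusted p = 0.0355), against 1.92 (SE 0.641, adjusted p = 0.108) without it. Neutrophil markers summed to at most 6.22 CPM in the antibody experiment. Osteoclast markers, of cells that carry high Mmp9, summed to 24 to 48.8 CPM in WT and 14.2 to 23.8 in cKO without antibody, which do not overlap, and to 41.4 to 54.5 and 20.3 to 42.5 with control antibody, with Calcr at 0 in the groups without antibody and in cKO with control antibody. Their part in the lower Mmp9 of cKO was not tested.

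In the 3 sets of WT and cKO BMDMs, Mmp14 and Mmp19 were lower in cKO in each set. Mmp14 was at 5.72, 3.69 and 3.4 CPM in WT set 1 against 1.61, 1.44 and 2.65 in cKO, at 5.46, 3.31 and 3.55 against 2.05, 1.39 and 0.920 in set 2, and at 5.41, 3.12 and 2.30 against 1.30, 1.76 and 1.35 in set 3. Mmp19 was at 24.1, 16.3 and 22.6 CPM in WT set 1 against 14.4, 14.2 and 13.8 in cKO, at 29.1, 28.6 and 26.7 against 19.6, 19.7 and 19.3 in set 2, and at 23.2, 16.6 and 17 against 11.1, 13.2 and 12.6 in set 3. No cKO library reached a WT library of its set for either gene. Of all genes, 41.4%, 44.5% and 43.2% did not overlap between genotypes in sets 1, 2 and 3.

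Log2 fold changes of Mmp14 were -1.17 (SE 0.381, adjusted p = 0.0196), -1.48 (SE 0.361, adjusted p = 0.00378) and -1.35 (SE 0.39, adjusted p = 0.00843) in sets 1, 2 and 3. Those of Mmp19 were -0.56 (SE 0.156, adjusted p = 0.00658), -0.53 (SE 0.148, adjusted p = 0.0111) and -0.63 (SE 0.156, adjusted p = 0.00259). The calls of Mmp19 in all 3 sets and of Mmp14 in set 2 held without each library. Mmp14 lost its call in set 1 without WT replicate 1 or cKO replicate 1 or 2, at an adjusted p of up to 0.103, and in set 3 without WT replicate 1, at -0.91 (adjusted p = 0.124). WT replicate 1 was the highest Mmp14 library of each set.

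Mmp13 was higher in cKO in sets 1 and 3. It was at 11.8, 2.75 and 3.25 CPM in WT set 1 against 18.4, 13.4 and 17.9 in cKO, and at 5.71, 2.73 and 4 in WT set 3 against 14.9, 13.9 and 16.5 in cKO. The groups did not overlap, and the log2 fold changes were 1.5 (SE 0.431, adjusted p = 0.00848) and 1.84 (SE 0.441, adjusted p = 0.00196). The call in set 3 held without each library, and that in set 1 was lost without WT replicate 2 or 3, at adjusted p values up to 0.0621 and a log2 fold change down to 1.11. In set 2 the WT libraries were at 35.0, 42.3 and 34.1 CPM, above the cKO libraries at 27.3, 30.2 and 23.5, with a log2 fold change of -0.46 (SE 0.366, adjusted p = 0.42).

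Set 2 differed in other members too. Mmp12 was at 1026, 1368 and 1001 CPM in WT set 2 and at 74.4 to 217 CPM in the other 15 libraries of the WT and cKO sets. Mmp9 was at 31.5, 32.3 and 26.8 CPM in WT set 2 and at 2.85 to 9.92 CPM in those other libraries. WT set 2 was thus well apart from the rest for both proteases. Against the cKO of its own set, Mmp9 differed by -2.68 (SE 0.233, adjusted p = 7.68e-09), Mmp12 by -2.52 (SE 0.44, adjusted p = 0.000132) and Timp2 by -0.67 (SE 0.142, adjusted p = 0.00102), all with no overlap, and these calls held without each library. Timp2 was at 239, 220 and 215 CPM in WT set 2 and 137, 159 and 128 in cKO set 2, the lowest cKO values of the 3 sets. The cKO libraries of set 2 also stood apart for Mmp12, at a mean of 197 CPM against 118 and 105 in cKO sets 1 and 3, and for Mmp13, at 27 against 16.6 and 15.1 CPM.

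In set 1 and set 3 the same genes gave log2 fold changes of 0.00 (SE 0.422, adjusted p = 0.999) and 0.28 (SE 0.423, adjusted p = 0.651) for Mmp12, and 0.01 (SE 0.141, adjusted p = 0.981) and -0.12 (SE 0.141, adjusted p = 0.558) for Timp2. Mmp9 was at -0.39 (SE 0.262, adjusted p = 0.266) in set 1. In set 3 it was at -0.72 (SE 0.263, adjusted p = 0.0346), with 8.07, 6.12 and 3.95 CPM in WT against 2.85, 4.15 and 4.12 in cKO, which overlap. That call was lost with the replicate number as a block, at -0.68 (adjusted p = 0.0961), with RLE scaling (adjusted p = 0.0507), with no filter (0.0527), with the counts by strand (0.0811), with only the groups compared (0.11) and without WT replicate 1 or 2 or cKO replicate 1 or 3, at adjusted p values up to 0.269. Calls were 3 of 7 members in set 1 (34.6% of 18083 genes), 5 of 7 in set 2 (21.9%) and 4 of 7 in set 3 (35.9%). In set 1 the members' share lay near that of all genes, and in set 2 above it.

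Osteoclast markers stood out in the same libraries. The 6 markers, of which Calcr was at 0 in WT set 2, summed to 95.5 to 121 CPM in WT set 2, to 18 to 22.2 in cKO set 2 and to 15.3 to 52.7 in the other groups of this experiment. Osteoclasts arise from the same precursors as macrophages and carry high Mmp9, and the part of such cells in the high Mmp9 and Mmp12 of WT set 2 was not tested. Stromal or fibroblast markers summed to 12.3 to 35.3, 32.7 to 98.4 and 12.7 to 17.5 CPM in WT sets 1, 2 and 3 and to 33.1 to 55.3, 39.2 to 78.5 and 28.8 to 38.3 in the cKO sets. Neutrophil markers were at 63.4 to 118, 105 to 184 and 71.7 to 127 CPM in the WT sets and 225 to 315, 163 to 184 and 220 to 362 in the cKO sets. The neutrophil sums were higher in cKO without overlap in sets 1 and 3, where Mmp13 was also higher. The stromal sums were higher without overlap in set 3 and overlapped in set 1. The part of these cells was not tested.

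**Figure D5:**
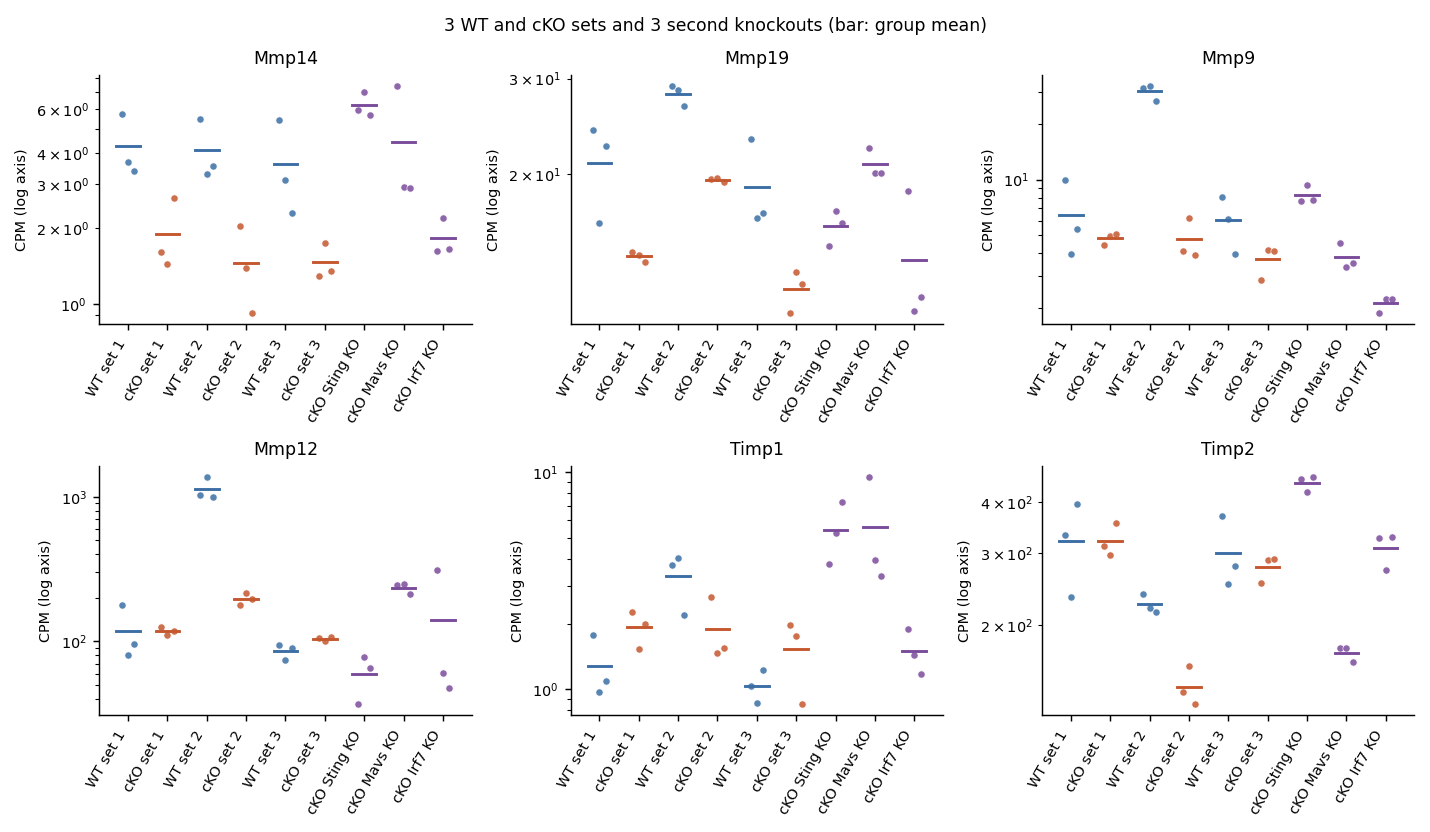
Levels in CPM, on log axes, of Mmp14, Mmp19, Mmp9, Mmp12, Timp1 and Timp2 in the 3 WT and cKO sets and the 3 double knockouts, with a point for each library and a bar at the group mean. Mmp14 and Mmp19 are lower in cKO in each set, Mmp9 and Mmp12 are highest in WT set 2, and Mmp14 in the Sting double knockout is at 5.66 to 6.99 CPM against 0.920 to 2.65 CPM in the cKO sets.

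The double knockouts addressed the sensors and the factor upstream of interferon. Sting carries the signal of cytosolic DNA, Mavs that of cytosolic RNA, and Irf7 drives type I interferon genes. Since no set is tied to a double knockout, each was compared with the mean of the 3 cKO sets. The Sting and Mavs alleles come from strains of mixed background. The study states that the Mavs knockout was backcrossed to the cKO strain over several generations, and states no backcross for Sting. The 3 comparisons share these cKO libraries.

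With Sting deleted as well, the membrane protease and both inhibitors were higher. Mmp14 was at 5.96, 6.99 and 5.66 CPM, above all 9 cKO libraries of the sets, by 1.96 on the log2 scale (SE 0.275, adjusted p = 1.05e-05). Timp1 was at 3.76, 5.26 and 7.29 CPM against 0.850 to 2.67, by 1.63 (SE 0.286, adjusted p = 0.000114), and Timp2 at 454, 423 and 459 CPM against 128 to 355, by 0.94 (SE 0.11, adjusted p = 1.27e-06). None of these groups overlapped. Mmp9 was at 7.70, 9.41 and 7.81 CPM against 2.85 to 6.20, higher by 0.92 (SE 0.198, adjusted p = 0.000874), again with no overlap. For the double knockouts, the share of all genes without overlap was not computed. Mmp12 was at 36.9, 77.7 and 65.3 CPM against 100.4 to 217, lower by a log2 fold change of -1.17 (SE 0.372, adjusted p = 0.0161).

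These were 5 of 7 members, where 36.4% of genes passed. The calls of Mmp9, Mmp14, Timp1 and Timp2 held against each cKO set alone and without each library. Mmp12 lost its call against set 1 alone, at -0.98 (adjusted p = 0.101), against set 3 alone, at -0.80 (adjusted p = 0.156), and without Sting double knockout replicate 1, at -0.92 (adjusted p = 0.123). Mmp13 was at 9.26, 21.3 and 19.4 CPM and Mmp19 at 14.8, 17.1 and 16.3 CPM, with log2 fold changes of -0.18 (SE 0.319, adjusted p = 0.693) and 0.10 (SE 0.127, adjusted p = 0.595).

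With Mavs deleted as well, Mmp14, Mmp19 and Timp1 were higher and Timp2 lower than the mean of the sets, 4 of 7 members where 9.32% of genes passed. Timp1 was at 9.51, 3.95 and 3.31 CPM, above all cKO libraries of the sets, by 1.66 (SE 0.274, adjusted p = 0.00023), a call that held against each set alone and without each library. Mmp14 was at 7.41, 2.93 and 2.90 CPM, by 1.45 (SE 0.281, adjusted p = 0.00127), and was at 0.87 (adjusted p = 0.0727) without replicate 1, its highest library. Mmp19 differed by 0.47 (SE 0.121, adjusted p = 0.0129) and Timp2 by -0.44 (SE 0.118, adjusted p = 0.0171).

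The last 2 rested on the choice of set. Against set 2 alone, Mmp19 was at 0.09 (adjusted p = 1) and Timp2 at 0.28 (adjusted p = 0.854), since cKO set 2 had the highest Mmp19 and the lowest Timp2 of the cKO sets. Mmp19 also lost its call with the counts by strand, at 0.30 (adjusted p = 0.125), and without Mavs double knockout replicate 1 (adjusted p = 0.0822), and Timp2 without any 1 of the 3 Mavs libraries, at up to 0.108. Stromal or fibroblast markers summed to 181 to 221 CPM in the Sting and 99.0 to 336 CPM in the Mavs double knockout, above the 28.8 to 78.5 CPM of the cKO sets, with counts for all 9 in both. Fibroblasts express Mmp14, Timp1 and Timp2, and their part in these differences was not tested.

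With Irf7 deleted as well, Mmp9 was lower and Timp2 higher, 2 of 7 members where 10.6% of genes passed. Mmp9 was at 1.89, 2.25 and 2.24 CPM, below all cKO libraries of the sets, with a log2 fold change of -1.04 (SE 0.249, adjusted p = 0.00798). Its call was lost against set 3 alone, at -0.81 (adjusted p = 0.231), and without replicate 1, at an adjusted p of 0.0547. Timp2 was at 325, 273 and 328 CPM, with a log2 fold change of 0.41 (SE 0.112, adjusted p = 0.0202), which was -0.06 (adjusted p = 0.845) against set 1 alone and 1.13 (adjusted p = 3.74e-06) against set 2 alone. It also lost its call without replicate 1 or 3, at adjusted p values up to 0.119. Replicate 1 stood apart from the others of its group for Mmp12, at 314 CPM against 60.2 and 47.5, and for Mmp13, at 35.1 CPM against 12.6 and 10.7. Stromal or fibroblast markers, at 34.5 to 54.1 CPM, lay within the range of the cKO sets. Neutrophil markers summed to 89.9 to 128 CPM in the Irf7 and to 64 to 129 CPM in the Mavs double knockout. Both ranges lay below the 163 to 362 CPM of the cKO sets. Mmp9 did not pass with Mavs deleted (-0.2 by DESeq2, adjusted p = 0.664). The part of neutrophils in the level of Mmp9 was not tested in either double knockout.

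In peritoneal macrophages Mmp9 was lower in cKO. It was at 53.5, 38.5 and 58.0 CPM in WT and at 4.97, 12.5 and 14.3 in cKO, with no overlap and a log2 fold change of -2.27 (SE 0.37, adjusted p = 0.0281). This was 1 of the 4 members tested, where 1.06% of 12361 genes passed. Of all genes, 15% did not overlap between these groups. The replicate numbers were taken to pair these libraries, and with the number as a block the value was -2.34 (adjusted p = 0.0502). The call was also lost without WT replicate 2 or 3 or cKO replicate 2 or 3, at adjusted p values up to 0.0818. Neutrophil markers summed to 152 to 306 CPM in WT and 135 to 223 in cKO, which overlap.

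Timp2 was at 2381, 2366 and 2671 CPM in WT peritoneal macrophages and 2044, 1596 and 2235 in cKO, with all cKO libraries below WT but a log2 fold change of only -0.34 (SE 0.176, adjusted p = 0.648). The highest BMDM library was at 459 CPM. Mmp14 was at 1.80, 0.568 and 0.501 CPM in WT against 1.37, 1.85 and 3.12 in cKO, and Mmp19 at 7.64, 13.6 and 11.6 against 9.93, 12.6 and 7.67, both with overlap. Markers of resident peritoneal macrophages, Gata6, Timd4 and Icam2, summed to 2080 to 2750 CPM here and to 1.56 to 31.3 CPM in the other groups, which checks the label.

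Other genes of the pathway were taken from lists of metalloproteinases, activators, other proteases, matrix proteins and AP-1 factors. Of 21 other Mmp, Timp and Reck genes, 7 to 14 had enough counts to be tested. IFNg raised Mmp25, a membrane-anchored metalloproteinase of leukocytes, by 7.30 in WT (SE 0.492, adjusted p = 2.66e-06) and 6.86 in cKO (SE 0.567, adjusted p = 1.97e-05) on the log2 scale, from a mean of 0.201 to 33.9 CPM in WT, and Mmp27 changed by -1.20 and -1.34. Mmp8, the collagenase of neutrophils, fell with maturation in WT by 1.40 from day 3 to day 5 (adjusted p = 0.00668) and by 1.57 from day 5 to day 7 (adjusted p = 0.0208).

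Mmp10, a stromelysin of the chromosome 9 cluster, was higher in cKO on day 3, by 2.76 (SE 0.569, adjusted p = 0.00419), and in sets 1 and 3, by 4.10 (SE 0.584, adjusted p = 3.55e-06) and 4.62 (SE 0.63, adjusted p = 1.84e-06). Mmp25 was higher in cKO in sets 1, 2 and 3, at log2 fold changes of 1.52, 1.40 and 1.39, and Mmp28 was lower without antibody, with control antibody and in sets 1 and 3, at -1.27, -1.05, -0.93 and -0.82. In the Sting double knockout, where 19.1% of all genes were higher and 17.2% lower, 4 of 14 passed as higher, among them Timp3 at 1.75 (adjusted p = 0.000129), and Mmp8 was lower. In the Mavs double knockout, where 5.9% of genes were higher and 3.42% lower, Timp3 (2.15) and Mmp2 (1.43) were higher and 3 were lower. The median over the 14 was 0.46 and 0.30 in these comparisons.

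The plasminogen activator Plau, whose product starts the activation of proenzymes, was higher in cKO in sets 1 and 3, at 1.66 and 1.95, and lower in set 2, at -1.22. Among 14 matrix proteins tested, 5 were higher in cKO on day 7 and none lower, with a median log2 fold change of 2.08, where 1.13% of all genes were higher and 0.689% lower. They were Col4a1, Col4a2, Sparc, Lamb1 and Thbs2. In sets 1 and 3, 6 and 5 of 14 were higher and none lower, and set 2 gave 3 higher and 3 lower. Of all genes, 17.9%, 17.1% and 10.1% were higher and 16.7%, 18.8% and 11.8% lower in sets 1, 3 and 2. In the double knockouts, 8 of these matrix proteins were higher and 2 lower with Sting deleted. With Mavs deleted 9 were higher and none lower, and with Irf7 deleted none were higher and 2 lower. The shares of all genes that were higher were 19.1%, 5.9% and 4.81% with Sting, Mavs and Irf7 deleted, and 17.2%, 3.42% and 5.75% were lower.

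Of 17 other proteases and protease inhibitors tested in WT with control antibody, 5 were higher than without antibody, as were 3.78% of all genes. They were Ctsk, Ctss, Ctsd, Adam10 and Ctsl, all but Adam10 of them lysosomal cathepsins. Of 10 AP-1 factors, Fosl2, Fosb and Junb were lower in cKO both without antibody and with control antibody, and 0 passed on days 3, 5 or 7, while 4 rose and 3 fell with IFNg in WT. Of all genes, 4.15% and 1.68% were lower in cKO without and with control antibody, and 19.5% rose and 19.3% fell with IFNg in WT. The median log2 fold change of the 10 factors was 0.21, 0.25 and 0.33 on days 3, 5 and 7.

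The genes whose log2 CPM followed each member most closely were named from the 18 time-course libraries, over 8952 or 8953 genes, as a description. For Mmp13 they were Slc15a3 (r 0.965), Dusp1 (0.959) and Bsg (0.953), for Mmp12 Qtrt2 (0.95), Gclc (0.947) and Tent4b (0.928), and for Mmp9 Alas1 (0.91), Ets1 (0.898) and Dgat1 (0.871). Timp2 was followed by Tab2 (0.96), Sh3glb1 (0.952) and Smagp (0.949), and Mmp19 by Ubtd1 (0.91), Snx27 (0.899) and Cat (0.889). Mmp14, with Atp6v1g1 at 0.854, and Timp1, with 2310022B05Rik at 0.905, were followed less closely by their nearest genes than Mmp13 was. These libraries share days, genotypes and replicate numbers.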

How the data were processed

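The authors trimmed reads with Cutadapt, aligned them with STAR to mm10 (the same assembly as GRCm38), and counted reads per gene with STAR. Versions are not given in the sources used here. The deposited values are raw counts per gene without normalization, for each library. The column without strand was used, and lines that name no gene were left out of library sizes. Gene symbols came from a table of gene IDs.

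Genes were filtered by group (filterByExpr of edgeR, smallest count 10, smallest total 15), and scaled by TMM. One model per experiment held every group, and edgeR 4.0.16 (with limma 3.58.1 in R 4.3.3) gave the fold changes and quasi-likelihood tests. Benjamini-Hochberg adjustment covered each gene in the fit, and calls are at an adjusted p under 0.05. The SE was taken from the log2 fold change and its F statistic, and 95% intervals are 1.96 SE to either side. Differences between effects were interaction terms. The method was tested on simulated data. DESeq2 1.42.0, RLE scaling, other filters, the counts by strand, a replicate block, fits of only the groups compared and leaving out each library were alternatives.

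Replicate numbers were taken to pair libraries where, with 3 pairs, the deviations from the group means of same-numbered libraries all had r over 0.1 across genes. This was so in 12 comparisons, and the lowest such r was 0.106. Except for cKO against WT in the sets, the block was a number shared by all groups of an experiment, also where this rule does not pair some of them. The 7 members, all gene lists and the rule for named genes (members, called list genes with the largest changes, and the 3 genes most like each member) were chosen with earlier results of these data known. A further list gene that the rule names is not reported here. Of 81 libraries, 2 cKO libraries of day 8 were left out of the tests because their title and library name disagree on IFNg. No 2 replicates agreed within counting noise (lowest chi-square per degree of freedom 3.33).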

Additional observations from a re-analysis of the deposited data

How the results depend on the processing

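Calls of members changed in number under some alternatives. For cKO against WT on day 3 (0 of 7 as reported) it was 1 with DESeq2, 1 with the counts by strand, 1 with the replicate block and 2 with only the groups compared. On day 5 (1) these were 0 by strand, 2 with the block and 0 with only the groups compared, and on day 7 (0) 2 with DESeq2 and 1 with the block. From day 3 to day 5 in WT (0) it was 2 with DESeq2, 1 with the block and 2 with only the groups compared, from day 5 to day 7 in WT (0) 1 with DESeq2, and from day 3 to day 5 in cKO (0) 3 with the block and 2 with only the groups compared. The change of the genotype effect from day 3 to day 7 (0) gave 1 with DESeq2.

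With IFNg on day 8, cKO against WT (2) gave 0 with the block, 0 with only the groups compared and 0 with the 2 unplaced libraries placed by title. The IFNg effect in cKO (2) gave 1 with only the groups compared and 0 with these libraries placed by title, with Mmp13 at 0.46 and Mmp14 at 0.54, while placing them by library name kept Mmp13 and Mmp14 called and added Mmp19 (0.92, adjusted p = 0.00431). In peritoneal macrophages (1) the block gave 0. With control antibody, cKO against WT (1) gave 2 with the block and 5 with only the groups compared. IFNAR1 against control antibody in WT (2) gave 1 by strand and 0 with only the groups compared, and in cKO (2) 0 with only the groups compared. Control antibody against none in WT (2) gave 1 by strand, and in cKO (1) 4 with DESeq2, 3 with the block and 4 with only the groups compared. The Mavs double knockout (4) gave 2 against set 2 alone, and the Irf7 double knockout (2) 1 against set 1 alone and 0 against set 3 alone.

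Leaving out each library in turn gave 0 to 1 members on day 3, 0 on day 5, 0 to 2 on day 7, 0 to 1 from day 5 to day 7 in WT, 0 to 1 from day 3 to day 5 in cKO, 0 to 3 for cKO against WT with IFNg, 1 to 3 for IFNg in cKO and 0 to 2 for the difference between the IFNg effects. It gave 0 to 1 in peritoneal macrophages, 0 to 2 without antibody, 0 to 2 with control antibody, 0 to 3 and 0 to 2 for IFNAR1 against control antibody in WT and cKO, 1 to 2 and 0 to 1 for control antibody against none in WT and cKO, 2 to 3 in set 1, 2 to 4 in set 3, 4 to 5 with Sting, 1 to 4 with Mavs and 1 to 2 with Irf7 deleted. On day 8 this leaves 1 cKO library, which is assumed to vary like the other groups.

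Directions turned in 5 of the 723 alternative values that were called as reported or under the alternative. Of the 2226 called in neither, 122 had the opposite sign, over 58 of the members' tests. Over the libraries left out, Mmp12 ranged from -1.61 to 1.24 for cKO against WT with IFNg, both called, and from -2.02 (called) to 0.84 for IFNg in cKO, with the lower value without cKO IFNg replicate 2 and the higher without replicate 1. With Irf7 deleted it ranged from -1.32, called, without double knockout replicate 1 to 0.47 without replicate 3. Timp2 was at 0.28 with Mavs deleted against set 2 alone and at -0.06 with Irf7 deleted against set 1 alone. Fits of only the groups compared have fewer libraries to estimate the spread from. The cause of the other changes was not tested.

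The replicate block is a paired fit. Where numbers do not pair the libraries, it changed calls for Mmp19 from day 3 to day 5 in WT (-0.66, adjusted p = 0.0384), for Mmp13 (1.77, adjusted p = 0.102) and Timp2 (0.90, adjusted p = 0.08) between genotypes with IFNg, for Timp1 between IFNAR1 and control antibody in cKO (-2.25, adjusted p = 0.0243), for Mmp12 (1.75, adjusted p = 0.0469) and Timp1 (2.36, adjusted p = 0.0247) between control antibody and none in cKO, and for Timp1 in set 2 (-0.81, adjusted p = 0.0317). In paired comparisons it changed no call beyond those given with the results. In the 2 cKO groups of day 8, same-numbered libraries deviated in opposite directions (r of -0.204), and crossing the numbers, chosen after seeing the data, gave 2 calls of members against 2 with the numbers as given. The smallest library, with 3614967 counts, and the 2 libraries per cKO group limit what day 8 can show, and Timp1 and Mmp14 rest on few counts.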

Other observations

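The 2 cKO libraries of day 8 that were placed in no group are given as values only, in CPM without TMM scaling. In the library with IFNg in its title and not in its library name, Mmp12 was at 420, Mmp13 at 10.2, Mmp14 at 5.58, Mmp19 at 13.7, Timp1 at 2.17 and Timp2 at 289 CPM, and Mmp9 had 0 counts of 9674853. In the library with IFNg in its library name and not in its title, Mmp12 was at 430, Mmp13 at 146, Mmp14 at 17.4, Mmp19 at 24.0, Timp1 at 3.81 and Timp2 at 168 CPM, and Mmp9 had 1 count of 10498769.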
